A study of Mus musculus with 20 samples.

Results

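Immediate-early and activity-dependent genes were followed in the hippocampus of 20 mice as a set of 33 named genes. The set was defined by name, as genes that neurons and other cells switch on within minutes to hours of a stimulus. All 33 were found among 57126 genes in the count files, and all 33 passed the filter on low counts, which left 18648 genes for testing. The members comprised 6 subunits of the AP-1 transcription factor, 4 EGR factors, 3 NR4A nuclear receptors, 6 further transcription factors, 5 genes that act at synapses and 9 genes of signalling feedback, growth arrest and related roles.

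The mice were male C57BL/6 animals whose adrenal glands, the main source of circulating glucocorticoid, had been removed at about 2.5 months of age in every group. Wild-type mice were compared with homozygous GRA knockin mice, in which exon 2 of the glucocorticoid receptor gene Nr3c1 carries start codon changes that leave the full-length receptor GRA and abolish the shorter forms made from later start codons (GRD1 to GRD3, GRC1 to GRC3 and GRB). The knockin is a germline change and so is not restricted to the hippocampus or to neurons. At 2 weeks after surgery, 5 mice of each genotype were injected intraperitoneally with phosphate-buffered saline (PBS) and 5 with dexamethasone, a synthetic glucocorticoid, at a dose of 1 mg per kg. The hippocampus was collected 6 h later. No group had intact adrenals and no other time was sampled.

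Immediate-early genes are transcribed without a need for new protein synthesis, because factors such as CREB and SRF already sit at their promoters and are switched on by calcium, cyclic AMP and MAP kinase signalling. In the hippocampus, the induction of Fos, Egr1, Arc and Npas4 marks neurons that were recently active, and their products change later gene expression and synaptic strength. The glucocorticoid receptor, once bound by hormone, moves to the nucleus, where it raises the transcription of some genes through DNA response elements and can interfere with AP-1.

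Libraries held 11493014 to 48267708 read pairs assigned to genes, and levels are given as CPM, a gene's count relative to the library total after TMM scaling, which equalises libraries on the bulk of their genes. Marker genes of dentate granule neurons, CA1 and CA2 with CA3 were present in every library, with summed levels of at least 385, 672 and 194 CPM, as the tissue label states. Liver transcripts stood apart in wild-type PBS replicates 1 and 2, where the summed markers reached 196 and 111 CPM, against at most 46.5 CPM in every other library. Choroid plexus markers were highest in wild-type PBS replicate 4, at 1775 CPM, and knockin dexamethasone replicate 2, at 1379 CPM. In a bulk library, fewer cells of a type and less RNA per cell cannot be told apart.

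Per kilobase of exon, the mean level over all libraries was highest for Plk2 at 70.1 CPM per kb, followed by Jun at 30.5, Egr3 at 27.2, Jund at 21.4 and Arc at 21.4 CPM per kb. Egr1 stood at 17.3 and Junb at 15.6 CPM per kb, whereas Fos reached 1.62, Npas4 1.39 and Fosb 1.25 CPM per kb. The lowest members on this scale were Maff at 0.454, Atf3 at 0.363 and Egr2 at 0.213 CPM per kb. Plk2 had the smallest coefficient of variation within groups, 4.08%, and Maff the widest, 39.8%, with a lowest count of 5 read pairs in a library.

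Of the 33 members, 26 had promoter windows in RefSeq (build GRCm38.p6), each covering 250 bases before to 50 bases after an annotated start. The full cyclic AMP response element (CRE), TGACGTCA, the site that CREB binds, occurred in a window of 4 members, Arl4d, Maff, Plk2 and Btg2 (15.4% of 26, against 2.03% of 27025 genes). Of these 4, Arl4d, Maff and Plk2 were called higher after dexamethasone in both genotypes in the fits described next, and Btg2 was not. Calls among the 549 genes with the full element were not counted, so a link of the element to the response was not tested. Members and motifs had also been chosen with earlier results of these data known. Over all genes, 5.27% were called higher in wild-type and 5.28% in knockin mice, a background not limited to genes with the element. Tiparp and Csrnp1, called higher in knockin mice, had windows without the full element, and Sik1, also called higher there, had no window. The shorter CRE form TGACG, searched on both strands and contained within the full element, occurred in 18 members (69.2%, against 23.0% of genes). The stretches from 180 bases before to 19 bases after the start are shown for these 4 genes and for Fos, the archetype of the class, with CRE and TGACG matches on either strand in capitals.
Arl4d (chr11:101665361-101665560, plus strand): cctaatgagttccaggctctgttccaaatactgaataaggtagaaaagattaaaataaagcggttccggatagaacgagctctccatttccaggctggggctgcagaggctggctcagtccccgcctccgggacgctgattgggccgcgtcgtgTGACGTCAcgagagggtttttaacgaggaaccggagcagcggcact
Maff (chr15:79347340-79347539, plus strand): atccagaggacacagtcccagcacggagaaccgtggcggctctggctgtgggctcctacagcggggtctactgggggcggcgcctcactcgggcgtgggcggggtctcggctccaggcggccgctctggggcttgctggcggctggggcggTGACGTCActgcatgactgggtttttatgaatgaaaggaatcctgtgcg
Plk2 (chr13:110394864-110395063, plus strand): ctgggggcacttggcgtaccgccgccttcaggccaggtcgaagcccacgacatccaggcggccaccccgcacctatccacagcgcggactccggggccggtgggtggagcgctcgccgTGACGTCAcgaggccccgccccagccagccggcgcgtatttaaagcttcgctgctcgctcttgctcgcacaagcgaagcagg
Btg2 (chr1:134079136-134079335, minus strand): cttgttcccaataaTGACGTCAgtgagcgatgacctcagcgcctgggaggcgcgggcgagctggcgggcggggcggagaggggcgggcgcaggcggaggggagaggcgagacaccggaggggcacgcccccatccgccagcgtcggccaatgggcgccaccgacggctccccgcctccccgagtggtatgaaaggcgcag
Fos (chr12:85473710-85473909, plus strand): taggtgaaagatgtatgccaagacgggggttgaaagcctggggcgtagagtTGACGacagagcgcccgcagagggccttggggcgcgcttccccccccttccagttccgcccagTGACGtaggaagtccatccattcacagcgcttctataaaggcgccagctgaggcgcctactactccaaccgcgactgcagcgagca

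The full element began 26 bases before the start of Arl4d, 29 before one of 3 annotated starts of Maff, 62 before that of Plk2 and 166 before that of Btg2. Fos carried 2 copies of TGACG in the stretch shown and no full element. The AP-1 site TGANTCA was found in 1 member, Csrnp1 (3.85%, against 8.97% of genes), the EGR site GCGTGGGCG in 1, Maff (3.85%, against 0.707%), and the CArG box, the site of SRF, in Egr2 and Srf (7.69%, against 1.81%). A glucocorticoid response element, written as a pair of TGTTCT sites facing each other 3 bases apart, was in no member window with up to 2 mismatches, against 2.1% of genes. Member windows were richer in G and C than windows at large (median 62.3% against 52.7%), a base composition that bears on how often CG-containing motifs occur. These matches describe letters in the windows alone. Egr1, Egr3, Crem, Arc, Nptx2, Ier2 and Sik1 had no window in the table.

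The first question was whether dexamethasone, given to mice without adrenal hormone, moved the early genes in wild-type and in knockin hippocampus. Counts were fitted with edgeR's quasi-likelihood test over all 20 libraries, and a gene was called at a Benjamini-Hochberg adjusted p below 0.05 over the 18648 genes. In wild-type mice 3 members rose, Arl4d, Maff and Plk2, where 5.27% of all genes were called higher, and 1 member, Egr2, fell, where 3.94% of all genes were called lower. In knockin mice 6 members rose, Arl4d, Tiparp, Maff, Sik1, Csrnp1 and Plk2, against 5.28% of all genes. No member was called lower in knockin mice by edgeR, against 4.71% of all genes, nor by DESeq2 or limma-voom. At an unadjusted p below 0.05 there were 11 members in either direction in knockin mice, where 20.8% of all genes passed that level, of which Ier3, Inhba and Nr4a3 were lower. The groups did not overlap for 4 members in wild-type mice (8.22% of all genes) and for 5 in knockin mice (8.68% of all genes).

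When the responses of both genotypes were averaged, the same 6 members were called higher, against 9.79% of all genes, and 2 were called lower, Nr4a3 and Inhba, against 8.41% of all genes. For the 33 members, wild-type mice gave a median log2 fold change of -0.07 and knockin mice one of 0.02, beside 0.00 over all genes tested in each. A total of 3 members were called in both genotypes, Arl4d, Maff and Plk2, which is 3 of the 4 called in wild-type and 3 of the 6 called in knockin mice. Fos, Fosb, Jun, Junb, Egr1, Arc and Npas4 were called in neither genotype.

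**Figure D1:**
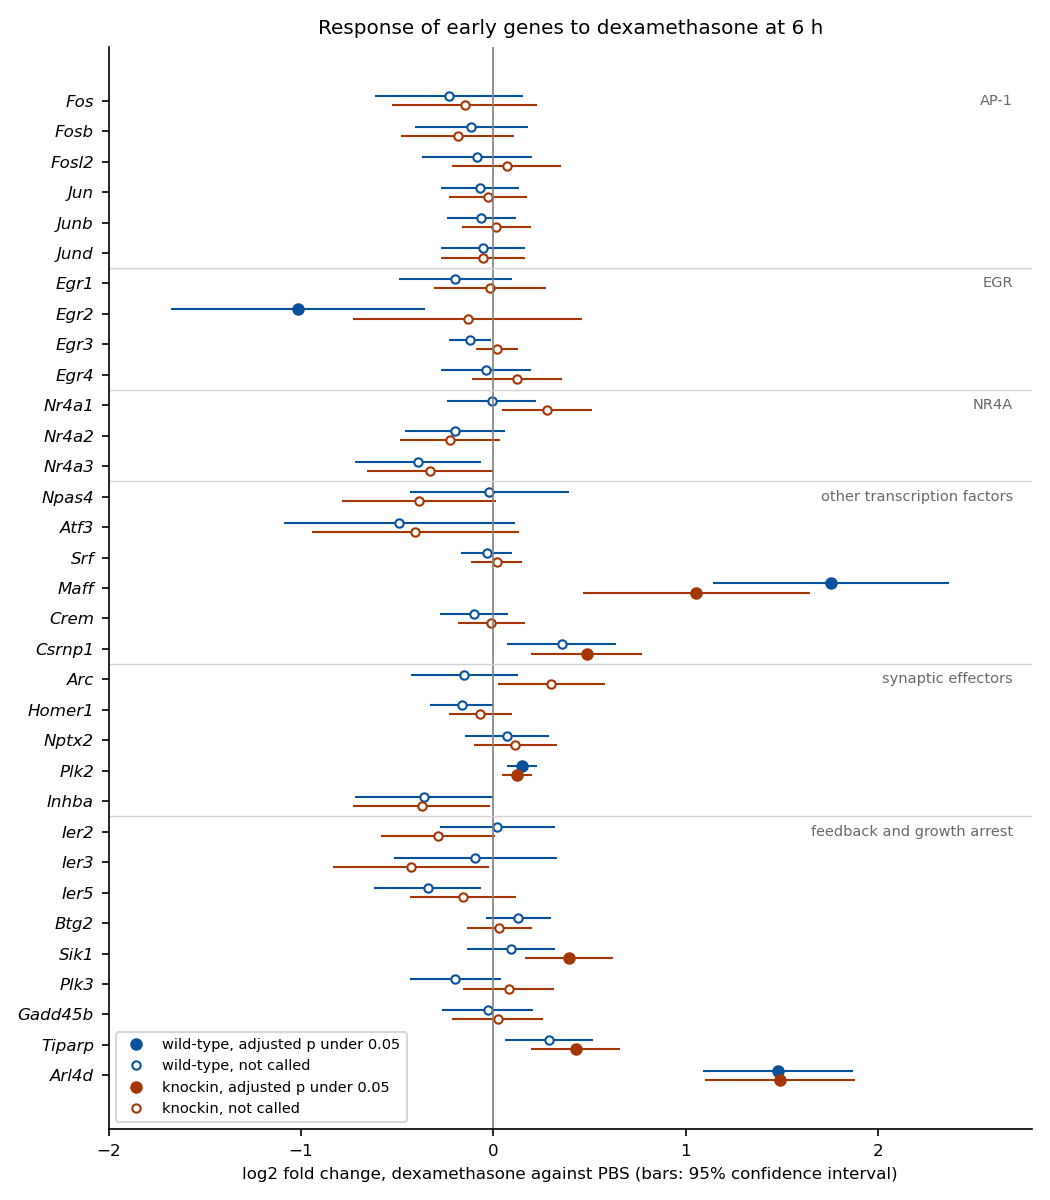
Log2 fold change (horizontal axis) of dexamethasone against PBS for each of the 33 members (rows, grouped by role) in wild-type (blue) and knockin (brown) mice, with 95% confidence intervals as bars. Filled points passed an adjusted p of 0.05. Arl4d and Maff stand to the right of all other members in both genotypes, and the 6 AP-1 genes lie near 0.

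Arl4d, a small GTPase of the ARF-like family that acts at the plasma membrane and on actin, had the smallest adjusted p of the set in both genotypes. The gene lies at chr11:101556367-101558658 on mm39. In wild-type mice Arl4d was measured at 4.51, 6.49, 4.07, 5.94 and 6.91 CPM after PBS and at 20.5, 16.7, 10.7, 16.9 and 13.5 CPM after dexamethasone. In knockin mice Arl4d was measured at 6.16, 4.89, 5.36, 6.05 and 6.71 CPM after PBS and at 13.2, 19.1, 14.6, 20.1 and 14.7 CPM after dexamethasone. Every dexamethasone library of either genotype exceeded every PBS library, with the highest PBS value at 6.91 and the lowest dexamethasone value at 10.7 CPM. The log2 fold change was 1.48 ± 0.19 (SE) in wild-type mice (2.79-fold, adjusted p = 2.03e-05) and 1.49 ± 0.19 (SE) in knockin mice (2.81-fold, adjusted p = 1.49e-05). The 2 responses differed by 0.01 ± 0.27 (SE) on the log2 scale, with a 95% confidence interval of -0.55 to 0.57 (adjusted p = 1).

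Maff, a small MAF protein that dimerises with other basic leucine zipper factors and is induced by many stress signals, was the other member called higher with a change above 2-fold. It lies at chr15:79230821-79243276 on mm39. In wild-type mice Maff was measured at 0.665, 0.44, 0.286, 0.381 and 0.619 CPM after PBS and at 2.01, 2.75, 1.09, 1.31 and 1.09 CPM after dexamethasone. In knockin mice Maff was measured at 0.854, 0.554, 0.318, 0.961 and 0.523 CPM after PBS and at 1.24, 1.45, 1.40, 1.82 and 1.08 CPM after dexamethasone. The groups did not overlap in either genotype, although the whole gene rested on 5 to 59 read pairs per library. Its log2 fold change was 1.76 ± 0.30 (SE) in wild-type (adjusted p = 0.000163) and 1.06 ± 0.29 (SE) in knockin mice (adjusted p = 0.0151). The difference of the responses was -0.70 ± 0.42 (SE), with an interval of -1.57 to 0.17 that holds 0 (adjusted p = 1). Leaving out knockin PBS 3 or knockin dexamethasone 4 alone lost the knockin call (log2 fold change 0.89 to 0.94, adjusted p 0.0536 to 0.056). An antisense gene shares exon sequence with Maff and held 77 read pairs over all libraries against 487 for Maff, and strand was not used in the counting.

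Tiparp, by name a member of the poly(ADP-ribose) polymerase family and known as a target of the aryl hydrocarbon receptor, lies at chr3:65435831-65462939 on mm39. In wild-type mice Tiparp was measured at 17.0, 18.5, 18.1, 16.7 and 17.2 CPM after PBS and at 28.5, 21.5, 17.5, 22.4 and 17.4 CPM after dexamethasone. In knockin mice Tiparp was measured at 15.5, 14.4, 15.5, 17.6 and 13.8 CPM after PBS and at 19.9, 24.2, 22.6, 19.0 and 18.7 CPM after dexamethasone. In knockin mice the groups did not overlap, while in wild-type mice dexamethasone replicates 3 and 5 lay within the PBS range. The log2 fold change was 0.43 ± 0.11 (SE) in knockin mice (adjusted p = 0.0133) and 0.29 ± 0.11 (SE) in wild-type mice (adjusted p = 0.12), and their difference was 0.14 ± 0.16 (SE) (adjusted p = 1). The mean response was 0.36 ± 0.08 (SE) (adjusted p = 0.00194). The wild-type response passed the threshold without wild-type dexamethasone 3 (adjusted p = 0.0322) and wild-type dexamethasone 5 (adjusted p = 0.0441), and the knockin call was lost with no filter on low counts (adjusted p = 0.057) and without the 2 libraries rich in choroid plexus transcripts (adjusted p = 0.0557). An antisense gene that shares exon sequence with Tiparp held 324 read pairs over all libraries against 8854 for Tiparp.

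Csrnp1 encodes a nuclear protein with a cysteine- and serine-rich region that was first described as induced by axin. In wild-type mice Csrnp1 was measured at 6.88, 7.19, 4.89, 7.31 and 7.72 CPM after PBS and at 7.79, 11.0, 9.29, 7.37 and 7.74 CPM after dexamethasone. In knockin mice Csrnp1 was measured at 5.98, 5.26, 6.10, 5.01 and 8.62 CPM after PBS and at 8.72, 7.17, 7.64, 9.75 and 8.67 CPM after dexamethasone. Wild-type PBS replicate 3 was the lowest of all 20 libraries, and knockin PBS replicate 5 reached into the dexamethasone range of its genotype. The mean response was 0.42 ± 0.10 (SE) (adjusted p = 0.00308), with 0.48 ± 0.14 (SE) in knockin (adjusted p = 0.0248) and 0.35 ± 0.14 (SE) in wild-type mice (adjusted p = 0.125). The knockin call was lost on leaving out any 1 of knockin PBS 1, 2, 3 and 4 and knockin dexamethasone 1 and 4 (log2 fold change 0.42 to 0.49, adjusted p 0.0517 to 0.0796). The call on the mean response held in all 20 fits that left out 1 library. The knockin call was also lost with no filter on low counts (adjusted p = 0.0562), and an antisense gene sharing exon sequence with Csrnp1 held 53 read pairs against 3510.

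Sik1, a salt-inducible kinase that restrains the CREB coactivators of the CRTC family, was called in knockin mice. In wild-type mice Sik1 was measured at 7.40, 10.2, 9.34, 6.32 and 9.32 CPM after PBS and at 9.53, 11.5, 9.32, 6.68 and 8.99 CPM after dexamethasone. In knockin mice Sik1 was measured at 8.30, 8.45, 7.75, 6.85 and 8.19 CPM after PBS and at 10.9, 10.3, 10.9, 9.79 and 9.85 CPM after dexamethasone. Each knockin dexamethasone library was higher than every knockin PBS library, and in wild-type mice the ranges overlapped almost whole. Its log2 fold change was 0.39 ± 0.11 (SE) in knockin (adjusted p = 0.0203) and 0.09 ± 0.11 (SE) in wild-type mice (adjusted p = 0.722). The difference between the genotypes, 0.30 ± 0.16 (SE), had an adjusted p of 1 and an interval of -0.02 to 0.62, so that the genotypes were not shown to differ. The knockin call was lost on leaving out any 1 of knockin PBS 4 and knockin dexamethasone 1 and 3 (log2 fold change 0.34 to 0.38, adjusted p 0.05 to 0.0625). The mean response of 0.24 ± 0.08 (SE) (adjusted p = 0.03) was lost on leaving out any 1 of wild-type PBS 1 and 4, wild-type dexamethasone 1 and 2, knockin PBS 3 and 4 and knockin dexamethasone 1 and 3 (adjusted p 0.05 to 0.0697). It was also lost without the libraries high in choroid plexus transcripts (adjusted p = 0.0666).

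Plk2, a polo-like kinase that weakens overexcited synapses, showed a small and even rise. In wild-type mice Plk2 was measured at 187, 189.8, 186, 177 and 181 CPM after PBS and at 205, 195, 211, 207 and 204 CPM after dexamethasone. In knockin mice Plk2 was measured at 183, 187, 187, 195 and 197 CPM after PBS and at 189.5, 223, 214, 201 and 207 CPM after dexamethasone. In wild-type mice the groups did not overlap, and in knockin mice dexamethasone replicate 1 lay within the PBS range. The log2 fold change was 0.15 ± 0.04 (SE) in wild-type (1.11-fold, adjusted p = 0.0101) and 0.12 ± 0.04 (SE) in knockin mice (1.09-fold, adjusted p = 0.0366). The knockin call was lost on leaving out any 1 of wild-type PBS 3, knockin PBS 1, 2 and 3 and knockin dexamethasone 2, 3 and 5 (log2 fold change 0.09 to 0.12, adjusted p 0.0502 to 0.143). It was also lost in limma-voom (adjusted p = 0.0575), in the fit to knockin libraries alone (adjusted p = 0.109), and without the libraries high in liver transcripts (adjusted p = 0.0524) or in choroid plexus transcripts (adjusted p = 0.141). Summed markers of striatum moved with these genes, at no more than 69.6 CPM after PBS and no less than 70.5 CPM after dexamethasone (6 of 6 markers detected). Summed microglial markers moved the other way, at no less than 282 CPM after PBS and no more than 268 CPM after dexamethasone (5 of 5 detected). Summed astrocyte markers were also lower after dexamethasone in wild-type mice, at 1762 to 1840 CPM after PBS and 1646 to 1727 CPM after dexamethasone, and overlapped in knockin mice, at 1731 to 1931 and 1651 to 1811 CPM (5 of 5 detected). These sums were not TMM-scaled. In wild-type mice the TMM factors ran from 1.006 to 1.03 after PBS and from 0.982 to 1.007 after dexamethasone. In knockin mice they ran from 1.0003 to 1.015 after PBS and from 0.981 to 0.993 after dexamethasone. The part of the marker shifts in the member responses was not tested.

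**Figure D2:**
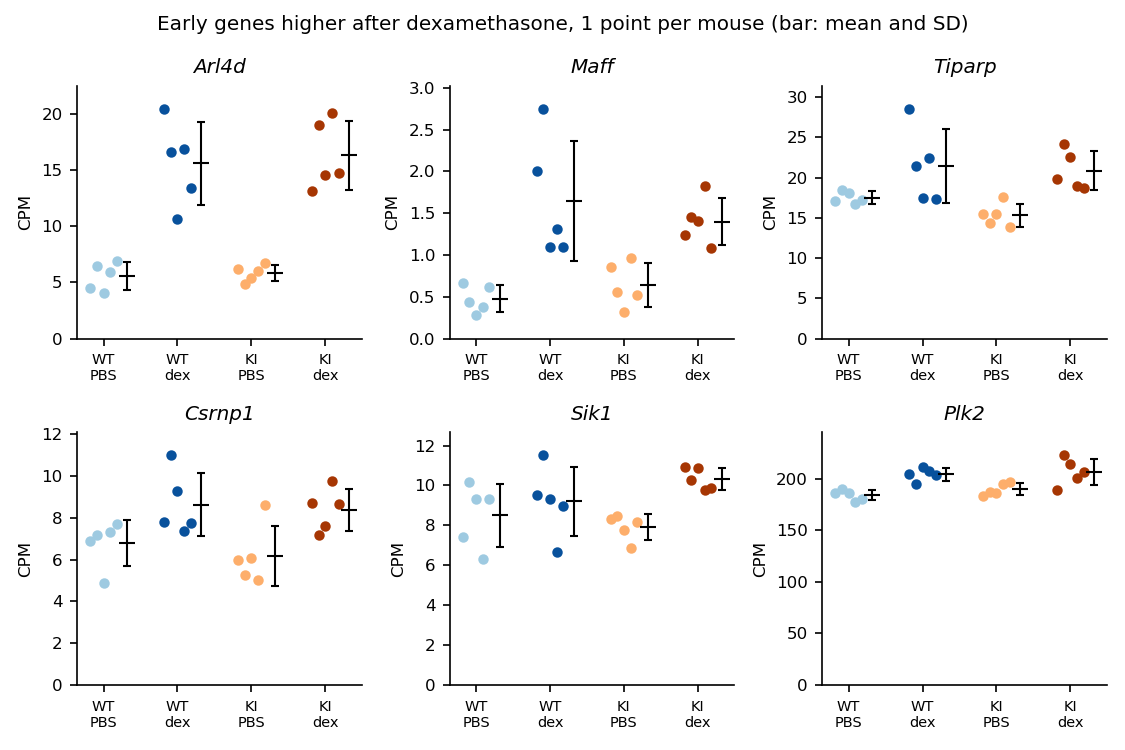
Level in CPM (vertical axis, from 0) of the 6 members called higher for the mean response, with 1 point per mouse, the 4 groups along the horizontal axis and the mean with SD beside each group. The dexamethasone points of Arl4d lie above 10 CPM and the PBS points below 7 CPM in both genotypes, while Plk2 differs 1.11-fold in wild-type and 1.09-fold in knockin mice.

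Of the members called lower, Nr4a3, an orphan nuclear receptor of the NR4A family, had the clearest separation in wild-type mice. In wild-type mice Nr4a3 was measured at 101, 95.9, 135, 102 and 101 CPM after PBS and at 68.0, 78.8, 85.3, 83.5 and 93.7 CPM after dexamethasone. In knockin mice Nr4a3 was measured at 105, 136, 125, 67.9 and 93.3 CPM after PBS and at 93.8, 77.9, 75.8, 77.6 and 93.2 CPM after dexamethasone. Wild-type groups did not overlap, and in knockin mice PBS replicate 4, at 67.9 CPM, was the lowest of the 10 libraries. The mean response was -0.36 ± 0.11 (SE) (adjusted p = 0.0295), with -0.39 ± 0.16 (SE) in wild-type (adjusted p = 0.152) and -0.33 ± 0.15 (SE) in knockin mice (adjusted p = 0.237). The call was lost on leaving out any 1 of wild-type PBS 3, wild-type dexamethasone 1 and 2, knockin PBS 2 and 3 and knockin dexamethasone 2, 3 and 4 (log2 fold change -0.36 to -0.31, adjusted p 0.0501 to 0.0612). The knockin response alone passed the threshold without knockin PBS 4 (adjusted p = 0.0287). With no filter on low counts the mean response had an adjusted p of 0.0567, and without the libraries high in choroid plexus transcripts one of 0.0669.

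Inhba encodes the inhibin beta A subunit, which dimerises into activin A, a secreted factor of the TGF-beta family that is induced by synaptic activity. In wild-type mice Inhba was measured at 8.97, 9.61, 10.9, 9.29 and 8.24 CPM after PBS and at 5.32, 6.01, 10.0, 6.83 and 8.05 CPM after dexamethasone. In knockin mice Inhba was measured at 9.11, 9.65, 10.7, 7.81 and 11.1 CPM after PBS and at 8.01, 6.23, 5.09, 7.02 and 10.4 CPM after dexamethasone. The lowest wild-type PBS value, 8.24 CPM, lay above 4 of the 5 wild-type dexamethasone values, and wild-type dexamethasone replicate 3 and knockin dexamethasone replicate 5 lay at or above 10 CPM. The mean response was -0.37 ± 0.12 (SE) (adjusted p = 0.0401), with -0.36 ± 0.17 (SE) in wild-type and -0.37 ± 0.17 (SE) in knockin mice, neither of which passed alone (adjusted p = 0.25 and 0.213). The wild-type response passed without wild-type dexamethasone 3 (adjusted p = 0.0447) and the knockin response without knockin dexamethasone 5 (adjusted p = 0.0445). The mean response was lost on leaving out any 1 of wild-type PBS 2, 3 and 4, wild-type dexamethasone 1, 2 and 4, knockin PBS 1, 2, 3 and 5 and knockin dexamethasone 2, 3 and 4 (log2 fold change -0.38 to -0.31, adjusted p 0.0524 to 0.0757). It was also lost with no filter on low counts (adjusted p = 0.107) and without the libraries high in choroid plexus (adjusted p = 0.0952) or liver transcripts (adjusted p = 0.066).

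Egr2, a zinc finger factor also needed by myelinating cells, was called lower in wild-type mice on very few reads, 4 to 37 read pairs per library. In wild-type mice Egr2 was measured at 0.949, 1.03, 1.11, 0.305 and 0.586 CPM after PBS and at 0.347, 0.639, 0.41, 0.384 and 0.312 CPM after dexamethasone. In knockin mice Egr2 was measured at 0.854, 1.15, 0.743, 0.601 and 0.523 CPM after PBS and at 0.776, 1.12, 0.571, 0.421 and 0.739 CPM after dexamethasone. The PBS libraries of wild-type replicates 1 to 3 lay near 1 CPM and replicates 4 and 5 lay within or near the dexamethasone range. The log2 fold change was -1.01 ± 0.32 (SE) in wild-type (adjusted p = 0.0454) and -0.13 ± 0.29 (SE) in knockin mice (adjusted p = 0.859), with a difference of 0.88 ± 0.43 (SE) (adjusted p = 1). The call was lost in limma-voom (adjusted p = 0.12) and without both libraries high in liver transcripts (adjusted p = 0.197). It was also lost on leaving out any 1 of wild-type PBS 1, 2 and 3, wild-type dexamethasone 1, 3, 4 and 5, knockin PBS 1 and 3 and knockin dexamethasone 1, 3 and 5 (log2 fold change -1.01 to -0.87, adjusted p 0.0502 to 0.152). The mean response, -0.57 ± 0.22 (SE) (adjusted p = 0.0682), passed without wild-type PBS 4 (adjusted p = 0.0289), wild-type PBS 5 (adjusted p = 0.0491), wild-type dexamethasone 2 (adjusted p = 0.0457) and knockin dexamethasone 2 (adjusted p = 0.0342), and without the libraries high in choroid plexus transcripts (adjusted p = 0.0115).

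None of the 6 AP-1 genes was called for dexamethasone in either genotype or for the mean response by edgeR, and none had an unadjusted p below 0.05 in these comparisons. In wild-type mice Fos was measured at 2.23, 4.04, 3.88, 3.20 and 4.63 CPM after PBS and at 2.39, 4.28, 3.24, 2.69 and 3.12 CPM after dexamethasone. In knockin mice Fos was measured at 2.92, 3.69, 3.61, 4.41 and 3.74 CPM after PBS and at 4.28, 3.23, 2.55, 2.49 and 3.74 CPM after dexamethasone. Fos, whose product joins JUN proteins to form AP-1, thus spanned about the same range in each group. Its mean response was -0.19 ± 0.13 (SE), with an interval of -0.46 to 0.08 (adjusted p = 0.377). Junb, a JUN family partner, ran from 24.8 to 33.1 CPM in wild-type PBS, 24.1 to 34.3 in wild-type dexamethasone, 26.7 to 29.3 in knockin PBS and 25.6 to 31.5 in knockin dexamethasone mice. Its mean response was -0.02 ± 0.06 (SE), with an interval of -0.15 to 0.10. Fosb, which also yields the long-lived splice form delta FosB that gene counts cannot separate, had a mean response of -0.15 ± 0.10 (SE), and Fosl2 one of -0.01 ± 0.10 (SE). Jun and Jund, the abundant JUN proteins, had mean responses of -0.05 ± 0.07 (SE) and -0.06 ± 0.07 (SE).

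Among the EGR factors, zinc finger proteins that bind GC-rich sites, Egr1, Egr3 and Egr4 were not called. In wild-type mice Egr1 was measured at 61.0, 95.9, 80.2, 67.1 and 95.1 CPM after PBS and at 67.7, 81.1, 71.1, 56.6 and 73.1 CPM after dexamethasone. In knockin mice Egr1 was measured at 65.4, 89.5, 94.0, 64.1 and 89.3 CPM after PBS and at 73.8, 83.1, 76.1, 77.5 and 85.6 CPM after dexamethasone. The 4 ranges of Egr1 overlapped, and its mean response was -0.11 ± 0.10 (SE) (interval -0.31 to 0.10, adjusted p = 0.535). Egr3, at 94.1 to 125 CPM over all libraries, had a log2 fold change of -0.12 ± 0.05 (SE) in wild-type (adjusted p = 0.192) and 0.02 ± 0.05 (SE) in knockin mice. For Egr4 the mean response was 0.04 ± 0.08 (SE) (adjusted p = 0.789).

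Of the other NR4A receptors, Nr4a1 ran from 31.5 to 44.4 CPM in wild-type PBS, 28.9 to 41.9 in wild-type dexamethasone, 28.4 to 40.1 in knockin PBS and 37.6 to 41.8 in knockin dexamethasone mice. The response of Nr4a1, also known as Nur77, was -0.01 ± 0.11 (SE) in wild-type and 0.28 ± 0.11 (SE) in knockin mice (adjusted p = 0.985 and 0.139), and the difference was 0.29 ± 0.16 (SE) (adjusted p = 1). The knockin value passed the threshold in the fit to knockin libraries alone (adjusted p = 0.036) and with each library's slope on transcript GC content as a covariate (adjusted p = 0.0186), an alternative chosen after the data were seen. Nr4a2, also known as Nurr1, had a mean response of -0.21 ± 0.09 (SE) (adjusted p = 0.112), which DESeq2's Wald test called (adjusted p = 0.0328) and which passed in edgeR without wild-type dexamethasone 3 (adjusted p = 0.0413) and knockin PBS 1 (adjusted p = 0.0467).

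**Figure D3:**
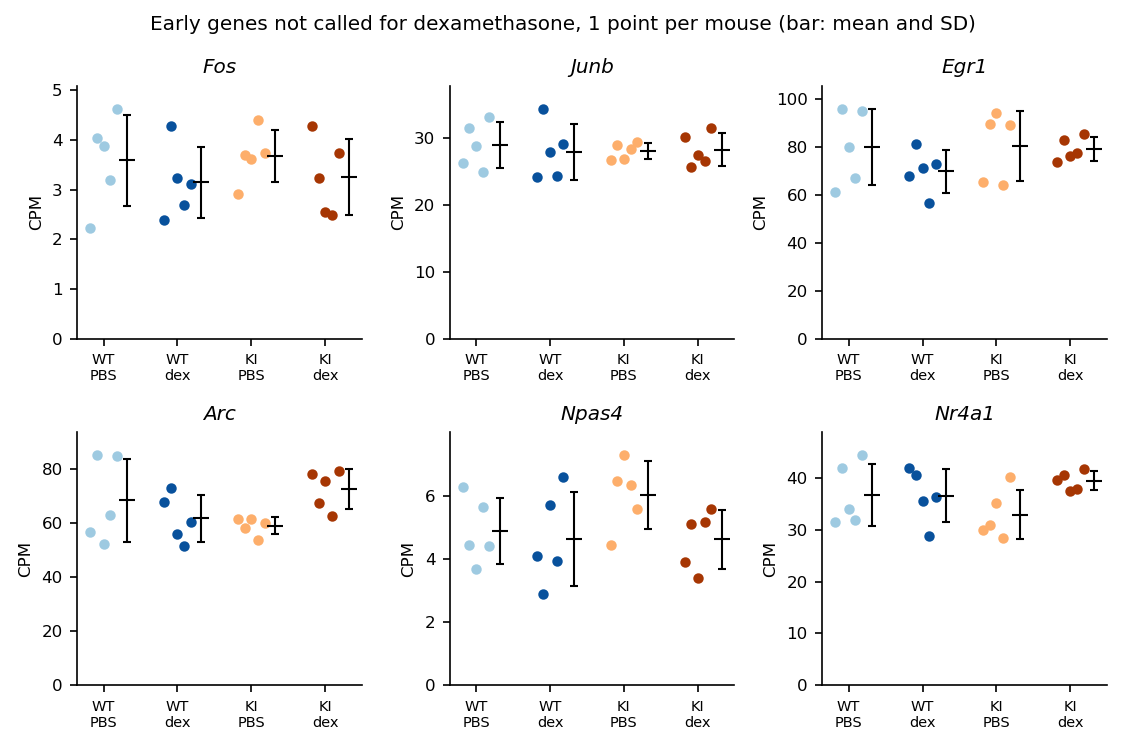
Level in CPM (vertical axis, from 0) of Fos, Junb, Egr1, Arc, Npas4 and Nr4a1, with 1 point per mouse, the 4 groups along the horizontal axis and the mean with SD beside each group. None of these 6 genes was called for dexamethasone, and the ranges of PBS and dexamethasone mice overlap in every panel except that of Arc in knockin mice.

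Npas4, a factor induced in neurons by calcium entry, ran from 3.68 to 6.27 CPM in wild-type PBS, 2.88 to 6.60 in wild-type dexamethasone, 4.45 to 7.27 in knockin PBS and 3.38 to 5.56 in knockin dexamethasone mice, with responses of -0.02 ± 0.20 (SE) in wild-type and -0.38 ± 0.19 (SE) in knockin mice (adjusted p = 0.978 and 0.266). Atf3, a stress-induced CREB family member, was the second lowest member, with 3 to 40 read pairs per library, and its mean response was -0.45 ± 0.20 (SE) (adjusted p = 0.124). For Srf, the factor that binds CArG boxes in early gene promoters, the mean response was -0.01 ± 0.05 (SE), with an interval of -0.10 to 0.09. Crem, whose short form ICER represses cyclic AMP responses and is not separated in these counts, had a mean response of -0.05 ± 0.06 (SE) (interval -0.18 to 0.07).

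At the synapse, Arc, which removes AMPA receptors from the membrane, had the smallest unadjusted p of the set for a difference between the responses of the genotypes. In wild-type mice Arc was measured at 56.9, 85.1, 52.4, 62.9 and 84.8 CPM after PBS and at 67.9, 72.9, 56.0, 51.5 and 60.6 CPM after dexamethasone. In knockin mice Arc was measured at 61.4, 58.2, 61.7, 53.9 and 60.2 CPM after PBS and at 78.3, 67.6, 75.5, 62.6 and 79.5 CPM after dexamethasone. Knockin groups did not overlap, by a gap of 61.7 to 62.6 CPM, while in wild-type mice PBS replicates 2 and 5 were higher than every dexamethasone library. The log2 fold change was 0.30 ± 0.13 (SE) in knockin (adjusted p = 0.194) and -0.15 ± 0.13 (SE) in wild-type mice (adjusted p = 0.604). The difference, 0.45 ± 0.19 (SE), had an unadjusted p of 0.0272 and an adjusted p of 1. The knockin response was called when the knockin libraries alone were fitted (0.29, adjusted p = 0.00842).

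Homer1, a scaffold of metabotropic glutamate receptors whose short early form is not separated from the long forms in gene counts, had a mean response of -0.12 ± 0.06 (SE) (adjusted p = 0.168), which passed without knockin PBS 4 (adjusted p = 0.0297). For Nptx2, a secreted pentraxin that clusters AMPA receptors, the mean response was 0.09 ± 0.07 (SE) (adjusted p = 0.462).

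Among the remaining feedback and growth arrest genes none was called by edgeR in the dexamethasone comparisons. Ier5, a regulator of heat shock factor activity, ran from 33.4 to 54.4 CPM in wild-type PBS, 31.3 to 40.1 in wild-type dexamethasone, 34.8 to 54.6 in knockin PBS and 34.3 to 41.5 in knockin dexamethasone mice. Its mean response of -0.25 ± 0.09 (SE) had an adjusted p of 0.0773, and it was called lower by DESeq2's Wald test (adjusted p = 0.0176) and without the 2 libraries high in liver transcripts (-0.33, adjusted p = 0.00964). It also passed without wild-type PBS 1 (adjusted p = 0.0208) and knockin PBS 1 (adjusted p = 0.0404), and with the GC slope as a covariate (adjusted p = 0.0369). Its wild-type response was called by DESeq2's Wald test (adjusted p = 0.0436), without the 2 libraries high in liver transcripts (-0.50, adjusted p = 0.0181) and without wild-type PBS 1 (adjusted p = 0.037). Ier2 had a mean response of -0.13 ± 0.10 (SE) and Ier3 of -0.26 ± 0.14 (SE) (adjusted p = 0.433 and 0.236). Btg2, an anti-proliferative factor, had a mean response of 0.08 ± 0.06 (SE), Plk3 of -0.06 ± 0.08 (SE) and Gadd45b, a factor in DNA demethylation and stress signalling, of -0.00 ± 0.08 (SE). Over all 25 members not called for the mean response, 22 had a 95% interval within 0.5 of 0 on the log2 scale. Among the 25, the lowest end of any interval was -1.02, for Egr2, and the highest end was 0.30, for Nr4a1.

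The next question was whether loss of the shorter receptor forms in the knockin changed the early genes at rest or their response. No member was called for knockin against wild-type under PBS, under dexamethasone, or for the difference of the dexamethasone responses, and the background was the same, with 0% of the 18648 genes called in each of the 3 by edgeR. DESeq2 and limma-voom also called 0 genes in these 3 comparisons. At an unadjusted p below 0.05, 1 of 33 members passed in each, beside 3.61%, 4.44% and 2.83% of all genes. Those members were Egr3, lower in knockin mice under PBS by a log2 difference of -0.12 ± 0.05 (SE), Egr2, higher in knockin mice under dexamethasone by 0.81 ± 0.33 (SE), and Arc for the difference of the responses. The 95% interval of the difference of the responses lay within 1 of 0 on the log2 scale for 31 of the 33 members.

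Genes that carry signals to the early genes were counted as a list of 36, all of which were tested. In wild-type mice 6 of 36 rose and 2 fell, where 5.27% of all genes rose and 3.94% fell. In knockin mice 3 rose and 3 fell, beside 5.28% and 4.71% of all genes, and for the mean response 7 rose and 4 fell, beside 9.79% and 8.41%. Rps6ka1, the kinase RSK1 that phosphorylates CREB and SRF, fell in wild-type mice with a log2 fold change of -0.31 ± 0.07 (SE) (adjusted p = 0.00335) and in knockin mice with -0.51 ± 0.07 (SE) (adjusted p = 5.79e-06). Ntrk2, the BDNF receptor TrkB, rose by 0.13 in wild-type and 0.18 in knockin mice (adjusted p = 0.0212 and 0.000693). Mrtfb, a coactivator of SRF, rose by 0.18 and 0.14 (adjusted p = 0.00476 and 0.0245). Elk3, an ETS partner of SRF, fell in knockin mice with a log2 fold change of -0.36 (adjusted p = 0.0044). Its mean in wild-type mice went from 10.9 CPM after PBS to 9.41 CPM after dexamethasone. Crebbp and Ep300, the acetyltransferases that CREB recruits, rose in wild-type mice by 0.17 and 0.15 (adjusted p = 0.0116 and 0.0095). In knockin mice their means went from 75.5 to 78.4 CPM and from 81.0 to 83.9 CPM.

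Of 30 other activity-regulated genes, 29 were tested, since Fosl1 was under the count filter. In wild-type mice 4 of 29 rose and 1 fell, beside the same 5.27% and 3.94% of all genes. In knockin mice 2 rose and none fell by edgeR (5.28% and 4.71% of all genes), and for the mean response 5 rose and none fell (9.79% and 8.41%). Per1, a clock gene with known glucocorticoid and CREB sites, rose from 64.0 ± 3.71 to 79.0 ± 6.56 CPM in wild-type and from 60.5 ± 1.22 to 79.5 ± 2.86 CPM in knockin mice (SD, n = 5; adjusted p = 6.17e-05 and 1.14e-06 by edgeR). Trib1, a pseudokinase, rose by log2 fold changes of 0.78 and 0.60 (adjusted p = 0.000156 and 0.00217). Gadd45g and the Krüppel-like factor Klf4 were called in wild-type mice, with 0.68 and 0.50 (adjusted p = 0.0208 and 0.0156). Gadd45g varied widely in wild-type dexamethasone mice, at 14.55 ± 5.065 CPM (SD, n = 5). In knockin mice the mean of Gadd45g went from 10.1 to 13.8 CPM and that of Klf4 from 6.09 to 6.07 CPM. Gpr3, a constitutively active receptor that raises cyclic AMP, fell in wild-type mice with a log2 fold change of -0.50 (adjusted p = 0.0211) and had 0.39 in knockin mice (adjusted p = 0.0866). The difference of its responses was 0.89 ± 0.20 (SE), with an unadjusted p of 0.000136 and an adjusted p of 1.

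The members were then compared between mice of 1 group, with the group mean removed from log2 CPM. This takes out the average effect of genotype and treatment, but not differences between mice in the size of a response. Against Fos, 25 of the other 32 members had a positive Pearson's r, with a median of 0.343, beside a median of -0.003 over all tested genes, and 10 of 32 had r above 0.5, where 3.00% of all tested genes did. Junb had the highest value, with r = 0.784 and Spearman's rho = 0.805 (permutation within groups, two-sided, 20 mice, adjusted p over 32 members = 0.0125 and 0.0147). Ier5 also passed by r, at 0.676 (permutation test, adjusted p = 0.0294), with rho = 0.621 (permutation test, adjusted p = 0.0686). Egr3 passed by rho, at 0.687 (permutation test, adjusted p = 0.0475), with r = 0.651 (permutation test, adjusted p = 0.0637). Srf, Fosb, Nr4a2, Egr4, Egr1, Ier3 and Plk3 followed with r of 0.595 to 0.503, and Arc stood at 0.459.

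Without the 2 mice farthest from the median of Fos, wild-type PBS 1 and wild-type dexamethasone 2, Junb kept r = 0.738 and Ier3 reached 0.683 (permutation test, adjusted p = 0.0499 for each), while Ier5 dropped to 0.483 and Egr3 to 0.513 (permutation test, adjusted p = 0.208 and 0.222). Srf, Egr4, Egr1, Plk3 and Arc dropped to 0.288, 0.132, 0.303, 0.095 and 0.232, while Fosb and Nr4a2 stood at 0.556 and 0.537. Over all 20 mice, 7 members had a negative r. Among them were Npas4, at -0.21, and the dexamethasone-raised Plk2, Tiparp, Maff and Arl4d, at -0.21, -0.15, -0.09 and -0.07. Leaving out the 2 mice turned Npas4 positive, at 0.27. Plk2, Tiparp, Maff and Arl4d then had -0.04, -0.28, -0.22 and -0.37. The other members called higher, Sik1 and Csrnp1, had a positive r of 0.436 and 0.160 over all 20 mice. Their values were 0.197 and 0.024 without the 2 mice. With 1 library left out, the number of members past the threshold was 7 without knockin PBS 4, 5 without wild-type dexamethasone 1 or 2, and 4 without knockin PBS 3. It was 1 on leaving out any 1 of wild-type PBS 5, wild-type dexamethasone 4 or 5, knockin PBS 1, or knockin dexamethasone 1 or 3.

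Over all 528 pairs of members the median r was 0.144, and 13.1% of pairs exceeded 0.5, against 3.20% of all gene pairs and 3.89% of pairs of genes with a mean log2 CPM of at least 2. The EGR family (median 0.407 over 6 pairs) and AP-1 (0.387 over 15 pairs) were the roles with the highest values, whereas the synaptic effectors (-0.04 over 10 pairs) and the feedback genes (0.022 over 36 pairs) lay near 0. The closest pairs were Nr4a3 with Homer1 at 0.827, Egr1 with Nr4a1 at 0.817, Egr1 with Egr4 at 0.799 and Fos with Junb at 0.784. These values share libraries, and they are given as descriptions.

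**Figure D4:**
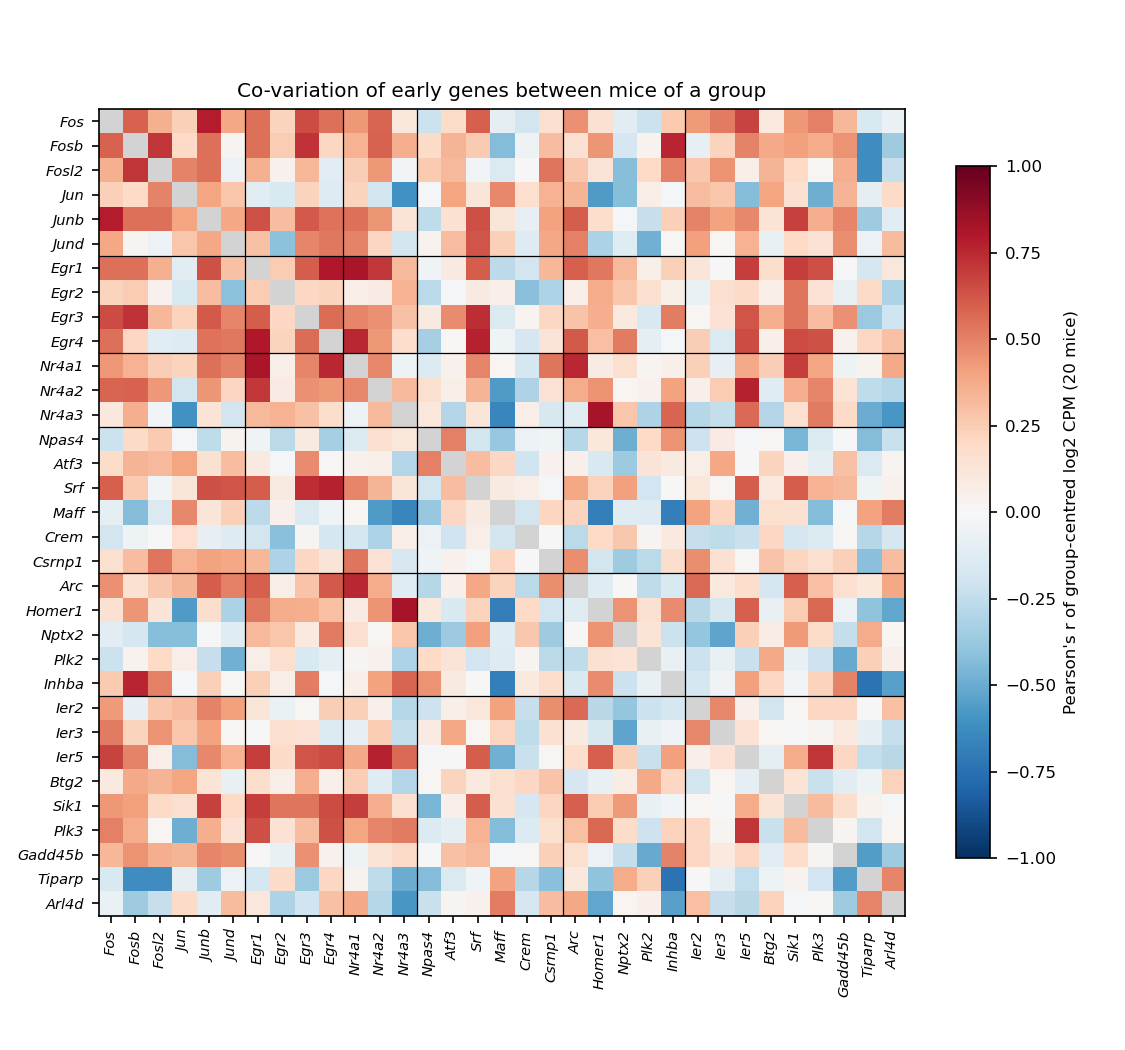
Pearson's r between each pair of the 33 members over 20 mice after removal of the group mean from log2 CPM, with rows and columns in the same order and black lines between the roles. Red cells fill the upper left, where Fos, Junb, Egr1, Egr3, Egr4 and Nr4a1 meet, and blue cells mark Maff, Tiparp and Arl4d against Nr4a3, Homer1 and Inhba.

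A score was formed as the mean log2 CPM of Fos, Junb, Egr1, Arc, Npas4 and Nr4a1, centred over all libraries. It averaged 0.027 ± 0.19 in wild-type PBS, -0.08 ± 0.15 in wild-type dexamethasone, 0.027 ± 0.12 in knockin PBS and 0.027 ± 0.12 in knockin dexamethasone mice (SD, n = 5), and the 4 ranges overlapped. After group centring, the score went with the slope of each library's log2 CPM on transcript GC content (r = 0.635 over 20 mice), a property of whole libraries that ran from -0.068 to 0.083 log2 units per 10 GC points. It also went with summed markers of cortical layers (r = 0.598), less with those of endothelium (0.425), thalamus (0.380) and CA1 (0.348), and little with log2 library total (0.133). Members are GC-rich, with a median of 55.5% in their transcripts against 50.4% over tested genes.

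With the GC slope removed, an alternative chosen after the data were seen, the median r with Fos was 0.227 and that over all pairs 0.113, with 9.47% of pairs above 0.5. Junb then had r = 0.703 and Fosb 0.643 (permutation test, adjusted p = 0.0911 for each), and no member passed the threshold. The 8 genes most like the score, of 11642 ranked by r over 20 mice, were Scrt1 (0.910), Zbtb7a (0.908), Pde4a (0.843), Ppp1r37 (0.835), Diras1 (0.831), Elfn1 (0.820), Cxcl12 (0.813) and Nfkbib (0.802). Their median transcript GC was 60.8% and the lowest was 48.6%.

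**Figure D5:**
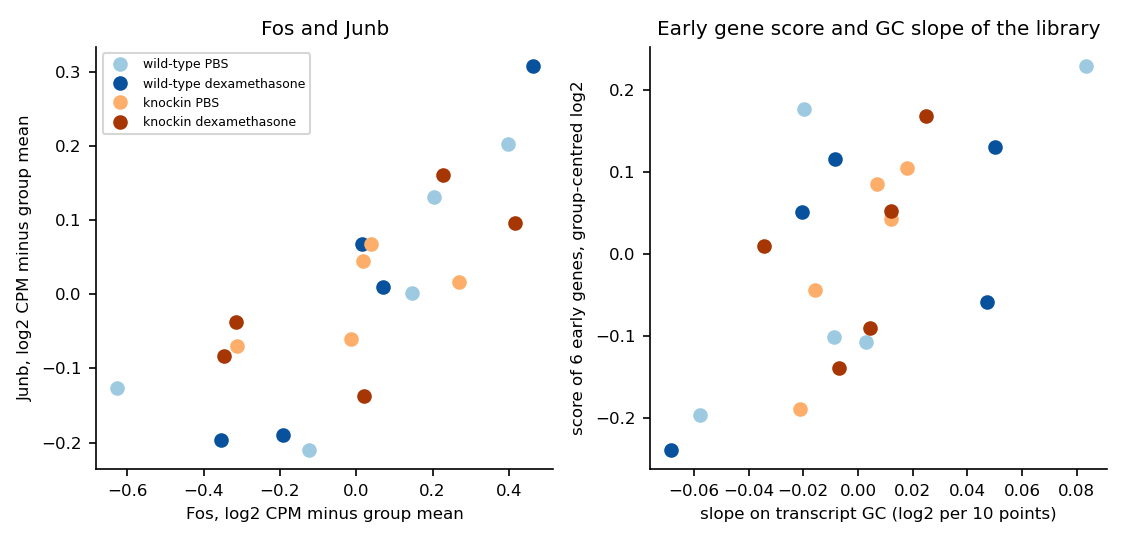
Left, Junb against Fos as log2 CPM minus the group mean, and right, the score of 6 early genes after group centring against each library's slope on transcript GC content in log2 units per 10 points, with 1 point per mouse coloured by group. Junb and Fos rise together (r = 0.784), and so do the score and the GC slope (r = 0.635).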

How the data were processed

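Poly(A) RNA of hippocampus was sequenced as 75-base paired-end reads, 1 library per mouse, per the labels' protocols. Each deposited file holds whole-number counts of read pairs for 1 library, counted by the authors in featureCounts (version 2.0.6) against GENCODE vM34 genes on mm39, no strand option and no multi-mapping pairs, per the file headers. The submitters' processing notes also name STAR 2.5.1, Subread 1.5.1 and DESeq2 1.38.3. Gene symbols came from a names table, which matched 51884 of 57126 identifiers. Each pair of libraries within a group was compared for duplicates by the mean chi-square statistic per gene, with no p-value. The lowest value was 2.51, for knockin dexamethasone 1 and 5, so no pair held identical counts.

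Counts were filtered with filterByExpr (minimum count 10, minimum total 15), scaled by TMM and fitted in edgeR 4.0.16 (R 4.3.3) with robust quasi-likelihood, all 20 libraries and 1 term per group. P-values were adjusted by Benjamini-Hochberg over 18648 genes, with a threshold of 0.05. SEs come from the log2 fold change and the F statistic. Co-variation used log2 CPM with a prior count of 2, centred by group, and 100000 permutations within groups. The GC slope regresses group-centred log2 CPM on mean transcript GC. Counting error is largest in the shallowest library, with 11493014 read pairs, and is part of the spread tested. Alternatives were DESeq2 1.42.0, limma-voom (limma 3.58.1), other filters, a replicate block, subsets of libraries and leaving out each library.

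The members, the further lists, the markers and the motifs were chosen with earlier results of these data known. All 33 members are named. Of the further lists, up to 6 genes called in the dexamethasone comparisons are named, by smallest adjusted p. The scripts were tested on simulated data.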

Additional observations from a re-analysis of the deposited data

Results flagged for a closer look

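In 136 groups of 5 mice, 5 values stood far from the other 4 by Dixon's test at the 95% level, where chance flags about 1 in 20 groups. In wild-type PBS replicate 3, Nr4a3 was 135 CPM, against 95.9 to 102 CPM in the other 4 mice, and Homer1 was 147 CPM, against 119 to 125 CPM. Csrnp1 was 4.89 CPM in the same mouse, against 6.88 to 7.72 CPM. In wild-type PBS replicate 1, Plk3 was 5.79 CPM, against 7.66 to 8.32 CPM, and Gadd45b was 6.36 CPM, against 6.87 to 7.05 CPM. Wild-type PBS replicate 1 was also the lowest library for Fos, at 2.23 CPM, and 1 of the 2 libraries high in liver transcripts.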

How the results depend on the processing

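Calls of Arl4d in both genotypes, of Maff and Plk2 in wild-type mice, and of Arl4d, Maff, Plk2, Tiparp and Csrnp1 for the mean response held under every alternative run in which the gene was tested, and no called value changed sign. Members called lower for the mean response numbered 2, against 4 in DESeq2's Wald test, 0 without a filter on low counts, 1 without the 2 libraries high in choroid plexus transcripts and 6 with a replicate block, which added Egr2, Nr4a2, Homer1 and Ier5. In wild-type mice 1 was called lower, against 2 in DESeq2's Wald test, 0 in limma-voom and 0 with the filter of 50 counts in 5 libraries, which Egr2 and Maff did not pass. Leaving out 1 library gave 3 to 4 members higher and 0 to 1 lower in wild-type mice, 3 to 6 higher and 0 to 1 lower in knockin mice, and 5 to 6 higher and 0 to 3 lower for the mean response, with 0 in the genotype comparisons and the difference of responses. Members correlated with Fos numbered 2, and 1 to 7 when 1 library was left out, 8 with no group centring, 1 with Arc in place of Fos, 1 without the libraries high in choroid plexus transcripts and 0 with the GC slope removed.

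Same-numbered libraries had a mean r per number of -0.043 to 0.060, and single pairs of them ran from -0.148 to 0.3065. Of 20 libraries, 6 were most like those of their own number. The labels state no meaning of the numbers, so they were not read as pairs, though these values cannot exclude pairing. With the replicate block Plk2 in knockin mice had an adjusted p of 0.0509 and Nr4a1 in knockin mice one of 0.0442, and 1 member was correlated with Fos. A fit to dexamethasone libraries alone called 1 gene for genotype, no member. Depth limits Egr2, Atf3 and Maff, whose lowest counts were 4, 3 and 5 read pairs.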

Other observations

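Nr4a3 and Inhba were the members called lower for the mean response, and 12 pairs join one of them with one of the 6 raised genes. Of these 12, 10 had a negative r after group centring, with a median of -0.40. The lowest were those of Maff, Tiparp and Arl4d with Nr4a3 (-0.66, -0.49 and -0.58) and with Inhba (-0.68, -0.74 and -0.54). With Nr4a3 and Inhba, Plk2 had -0.31 and -0.07, Csrnp1 -0.16 and 0.17, and Sik1 0.16 and -0.03. The 15 pairs among the 6 raised genes had a median of 0.154. The 300 pairs of members not called for the mean response had a median of 0.207. For the 150 pairs of a raised gene with such a member it was 0.028. Egr2, called lower in wild-type mice, was positive with Sik1 (0.534), Tiparp (0.189), Plk2 (0.157) and Maff (0.052) and had r = -0.31 with each of Csrnp1 and Arl4d. The lowest pairs were Inhba with Tiparp at -0.74, Maff with Homer1 at -0.69 and Maff with Inhba at -0.68. Of all 528 pairs of the set, 15 were among raised genes, 12 joined one to Nr4a3 or Inhba and 150 joined one to a member not called. Of the 12 lowest pairs of the set, 10 held one of the raised genes, which was Maff, Tiparp or Arl4d in each. These pairs were chosen after their values were seen, they share libraries, and no test was made of them.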
